A study of Mus musculus with 17 samples.

Results

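The genes described here are a set of 10 glycolysis genes of the mouse, Slc2a1, Hk2, Gpi1, Pfkl, Aldoa, Tpi1, Gapdh, Pgk1, Pkm and Ldha, measured in germinal centre (GC) B cells. They were chosen by symbol as genes of the pathway, with earlier results of these data known, and are 10 of 21848 genes in the feature lists. All 10 were detected and passed the filter on low counts, which left 10220 genes in the time course and 10120 in the comparison of cells sorted by cyclin-dependent kinase 2 (CDK2) activity. The libraries were 10X Genomics droplet libraries of lymph node GC B cells, in which each molecule is counted once through a unique molecular identifier (UMI) and each mouse is marked by a hashtag antibody.

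In the time course, mice primed with ovalbumin (OVA) received B1-8hi B cells, which recognize the hapten NP, and were immunized with NP-OVA. Some were then given anti-DEC-OVA, an antibody to the receptor DEC-205 coupled to OVA, which loads DEC-205-bearing B cells with OVA for presentation to T follicular helper cells. In the paper's design, a minor part of the transferred cells carried DEC-205 and the rest lacked it (Ly75-/-). The paper's mutation counts for this time course are of DEC-205-bearing cells. The authors' list of mice used here does not give the DEC-205 status of a cell. The groups were Day7 (start of treatment, 0 h; 9 mice), Day9 (48 h, untreated; 6 mice), Day9DEC (48 h after anti-DEC-OVA; 9 mice), Day10 (72 h, untreated; 8 mice) and Day10DEC (72 h after anti-DEC-OVA; 7 mice), 39 mice with 23698 kept cells in a larger and a smaller experiment. The second comparison used 7 mice whose transferred B cells carried a DHB–tdTomato reporter at Rosa26, which is nuclear in cells with little CDK2 activity and cytoplasmic in cells with much of it. From each of these mice, 72 h after anti-DEC-OVA, image-based sorting gave a CDK2hi fraction (cytoplasmic reporter) and a CDK2low fraction (nuclear reporter), 11833 kept cells in all. All CDK2hi fractions were in 1 10X library and all CDK2low fractions in another, so an effect of the library and the difference in CDK2 activity cannot be told apart. Cells of the hosts were not removed from these counts: 9219 of 13625 kept cells of the larger and 4372 of 10073 of the smaller experiment had exactly 1 contig of each B1-8hi chain. The other cells need not be host cells, since a transferred cell with a missing or extra contig is also left out of this count.

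Glycolysis splits glucose into pyruvate in the cytosol and yields ATP, NADH and carbon for biosynthesis. Slc2a1 (GLUT1) admits glucose, Hk2 and Pfkl spend ATP in its first steps, and the lower part of the pathway, from Gapdh to Pkm, repays it. Ldha turns pyruvate into lactate and returns NAD+. GC B cells alternate between the light zone, where they receive T cell help, and the dark zone, where they divide, and glycolytic genes are textbook targets of Myc and of hypoxia-inducible factors (HIF).

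By the GENCODE annotation of the build that the files name (mm39, GRCm39), Tpi1 (chr6:124787549-124791273) and Gapdh (chr6:125135289-125143518) lie with Hk2 on chromosome 6. Gpi1, Aldoa and Ldha (chr7:46490899-46505061) lie on chromosome 7. Pgk1 (chrX:105230706-105247305) is X-linked, and Slc2a1 (chr4:118965908-118996365), Pfkl and Pkm lie on chromosomes 4, 10 and 9. All are protein-coding. The values are counts per gene, so the splice forms of Pkm are not told apart. A second identifier with the symbol Aldoa, on the same strand and overlapping the first, was too low to be tested. Several of these genes, Gapdh among them, have near-identical processed copies elsewhere in the mouse genome, and how reads were divided between them was not tested.

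The promoters of the 10 genes were searched because HIF and Myc have known DNA motifs. The RefSeq table used (build GRCm38.p6, not the build of the files) holds 14 promoters for the 10 genes, and the 250 bases before each start were read on both strands for ACGTG, a core of the hypoxia-response element, and for CACGTG, the E-box bound by Myc and its partner Max. The letters of the E-box include those of the shorter core, so every E-box was also counted as a core. At least 1 promoter with the core was found for 18.5% of all 27025 genes in the table, and with the E-box for 6.86%. By promoter, the core stood in 7 of the 14 and in 16.6% of 32851, and the E-box in 1 of the 14 and in 6.02%. Of the 10 genes, 6 (Aldoa, Hk2, Ldha, Pgk1, Pkm, Slc2a1) had the core and 1 (Ldha) had the E-box in at least 1 promoter. The promoters of 5 genes are shown, 5′ to 3′ along the gene, 3 with matches and 2 without. Capitals mark each match, and a core on the other strand reads CACGT.
Ldha, chr7:46845554-46845803, plus strand: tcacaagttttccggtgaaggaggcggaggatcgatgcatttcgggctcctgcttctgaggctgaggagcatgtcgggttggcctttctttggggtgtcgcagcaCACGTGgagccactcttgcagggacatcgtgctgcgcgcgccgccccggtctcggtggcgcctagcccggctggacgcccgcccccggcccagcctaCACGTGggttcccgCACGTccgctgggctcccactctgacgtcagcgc
Pgk1, chrX:106186850-106187099, plus strand: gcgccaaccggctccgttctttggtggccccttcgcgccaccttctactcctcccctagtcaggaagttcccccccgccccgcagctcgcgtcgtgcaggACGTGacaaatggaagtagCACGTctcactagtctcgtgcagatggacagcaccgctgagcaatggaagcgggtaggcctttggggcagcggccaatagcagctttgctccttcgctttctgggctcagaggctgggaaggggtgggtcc
Slc2a1, chr4:119108495-119108744, plus strand: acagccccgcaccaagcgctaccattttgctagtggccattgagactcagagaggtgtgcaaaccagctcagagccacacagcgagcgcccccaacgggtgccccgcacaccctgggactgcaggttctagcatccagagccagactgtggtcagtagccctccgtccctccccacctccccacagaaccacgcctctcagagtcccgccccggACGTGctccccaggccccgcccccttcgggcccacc
Tpi1, chr6:124814159-124814408, minus strand: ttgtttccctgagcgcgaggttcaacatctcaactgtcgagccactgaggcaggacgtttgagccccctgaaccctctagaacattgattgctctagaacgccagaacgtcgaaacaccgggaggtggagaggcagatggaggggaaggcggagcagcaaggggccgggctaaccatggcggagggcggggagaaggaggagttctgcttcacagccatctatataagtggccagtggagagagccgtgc
Gapdh, chr6:125165774-125166023, minus strand: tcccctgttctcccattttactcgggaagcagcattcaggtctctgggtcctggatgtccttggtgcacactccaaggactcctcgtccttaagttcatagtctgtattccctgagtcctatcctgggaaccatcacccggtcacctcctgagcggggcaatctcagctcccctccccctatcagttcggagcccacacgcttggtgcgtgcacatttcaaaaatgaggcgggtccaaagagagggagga
Ldha had 5 matches to the core, 4 of them on the strands of its 2 E-boxes, Pgk1 had 2 and Slc2a1 had 1. Tpi1 and Gapdh had none in this window. A match is a stretch of letters, and binding was not measured.

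Between 292 and 1045 cells and between 1984426 and 13373185 UMIs were kept per mouse in the time course, and between 278 and 1679 cells and 3988733 and 20394909 UMIs per mouse and fraction in the CDK2 comparison. Counts were summed per mouse, and levels are given as CPM, a gene's UMIs scaled by the UMI total of that mouse to a common total. In summed counts, a gene that falls in all cells cannot be told apart from fewer cells that express it. GC B cell markers were abundant in every mouse, summing over 10 genes to 3773 CPM in the lowest. Of the T cell markers, Cd3e (1.01 CPM) and Cd4 (0.427 CPM) were near 0 on average, each at 0 in some mice, and Lck stood at 73.3 CPM. Pools shared between 6 and 94 cell barcodes with each other. One Day7 mouse of the larger experiment had 312 cells and the highest share of cells called G1, 66.0%.

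At 48 h, the genes of the lower pathway were higher in treated mice. Of the 10 genes, 8 rose and none fell in Day9DEC against Day9 (edgeR quasi-likelihood test, adjusted p below 0.05 over 10220 genes), where 47.4% of all tested genes were called, 26.3% higher and 21.1% lower. The median log2 fold change was 0.40 over the 10 genes and 0.01 over all tested genes. Aldoa, Tpi1, Gapdh, Pgk1, Pkm and Ldha were higher in every Day9DEC mouse than in any Day9 mouse, and 3.62% of tested genes had groups apart in this way, with 4.8% apart in the other direction. Slc2a1 and Hk2, the entry of the pathway, were not called. In cells with exactly 1 contig of each B1-8hi chain, 6 of the 10 genes were called (median 0.30), without Gpi1 and Pfkl, where 3397 of all genes were called. With library sizes alone 7 were called (median 0.33), without Gpi1, where 4967 of all genes were called. The test with TMM factors and all cells called 4843.

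For the steps that bring in and prepare glucose, the groups overlapped. Slc2a1, the glucose transporter, ranged from 15.2 to 28.6 CPM in Day9 (median 23.5) and from 12.4 to 28.1 CPM in Day9DEC (median 20.1), with a log2 fold change of -0.09 (95% interval -0.30 to 0.13, adjusted p = 0.518). Hk2, the hexokinase that traps glucose as glucose 6-phosphate, ranged from 5.77 to 12.7 CPM in Day9 (median 6.48) and from 4.49 to 11.5 CPM in Day9DEC (median 6.26), with a log2 fold change of -0.16 (95% interval -0.43 to 0.10, adjusted p = 0.32). Hk2 had few UMIs, and its intervals were wide throughout. Gpi1, which isomerizes glucose 6-phosphate, ranged from 203 to 278 CPM in Day9 (median 269.7) and from 227 to 286 CPM in Day9DEC (median 269.9). With the experiment in the model, its log2 fold change was 0.14 ± 0.04 (SE), adjusted p = 0.00331. Mice of the larger experiment had more Gpi1 than those of the smaller in every group. Within the larger experiment alone the log2 fold change of Gpi1 was 0.04 (adjusted p = 0.456), and within the smaller it was 0.24 (adjusted p = 0.0253). Pfkl, a subunit of phosphofructokinase, the committed step, ranged from 19.4 to 26.2 CPM in Day9 (median 21.5) and from 21.1 to 30.3 CPM in Day9DEC (median 26.2). It rose by 0.32 ± 0.08 on the log2 scale (adjusted p = 0.00102), and the groups overlapped.

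Of the genes that split and oxidize the sugar, Aldoa, the aldolase, ranged from 148 to 172 CPM in Day9 (median 161) and from 189 to 228 CPM in Day9DEC (median 213). It rose by 0.44 ± 0.07 on the log2 scale (adjusted p = 1.35e-06). Tpi1, which interconverts the triose phosphates, ranged from 226 to 276 CPM in Day9 (median 233) and from 305 to 368 CPM in Day9DEC (median 338). The lowest treated mouse stood above the highest untreated mouse, and with 0.53 ± 0.08 (adjusted p = 1.05e-06) Tpi1 had the highest log2 fold change of the 10 genes. Gapdh, which makes NADH, ranged from 563 to 629 CPM in Day9 (median 574) and from 672 to 752 CPM in Day9DEC (median 728), a rise of 0.36 ± 0.05 (adjusted p = 6.15e-07). Gapdh is often used as a reference gene, and here it was 1.29-fold higher.

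Transcripts of the ATP-yielding steps and of Ldha were higher as well. Enzyme activity, lactate and flux through the pathway were not measured. Pgk1, the first ATP-yielding enzyme, ranged from 202 to 252 CPM in Day9 (median 218) and from 275 to 302 CPM in Day9DEC (median 293), a rise of 0.48 ± 0.07 on the log2 scale (adjusted p = 5.87e-07). Pkm, pyruvate kinase, ranged from 357 to 436 CPM in Day9 (median 386) and from 487 to 549 CPM in Day9DEC (median 515), a rise of 0.49 ± 0.06 (adjusted p = 8.24e-08). Ldha, lactate dehydrogenase A, ranged from 414 to 558 CPM in Day9 (median 461) and from 571 to 680 CPM in Day9DEC (median 628), a rise of 0.50 ± 0.09 (adjusted p = 1.9e-05). For Ldha the gap between the groups was narrow, and the highest untreated mouse, which was also the highest Day9 mouse for Aldoa, Tpi1, Gapdh, Pgk1 and Pkm, had the most UMIs per cell of its group. The plot of CPM by mouse shows all 10 genes over the 5 groups.

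**Figure D1:**
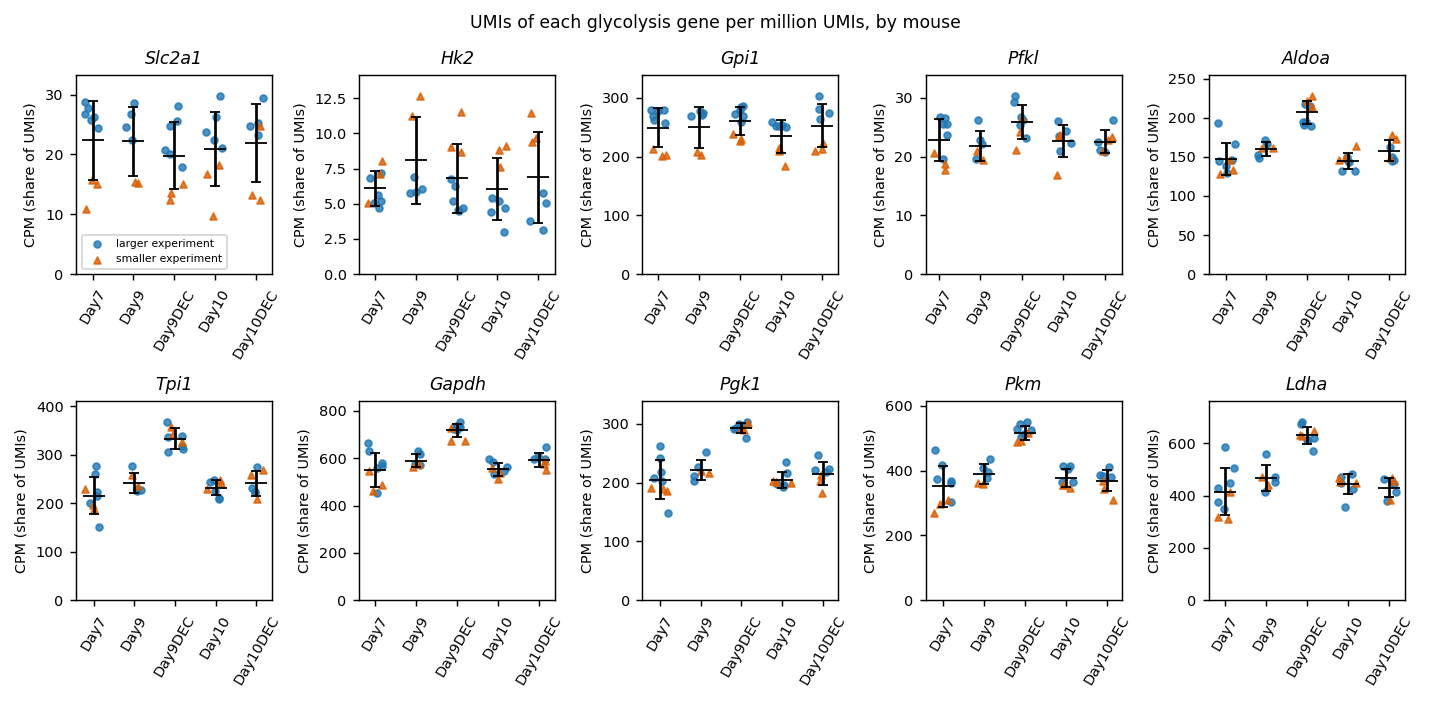
CPM of each gene by group of the time course, 1 point per mouse (circles, larger experiment; triangles, smaller experiment), with the mean and SD of the group in black and axes from 0. From Aldoa to Ldha the Day9DEC mice stand above the Day9 mice, and Gpi1 separates by experiment in every group.

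The direction was shared by the experiments. All 10 genes had the same sign in Day9DEC against Day9 in the larger and in the smaller experiment, and 7 were called higher in each alone. Of all genes, 3838 were called in the larger experiment alone and 2149 in the smaller. Gpi1 was not called in the larger, and Pfkl was not called in the smaller (log2 fold change 0.32, adjusted p = 0.116). The level of some genes differed by experiment. Gpi1 ranged from 269 to 278 CPM in the Day9 mice of the larger and from 203 to 208 CPM in those of the smaller experiment, and Slc2a1 from 24.4 to 28.7 CPM and from 10.8 to 15.8 CPM in the Day7 mice. Hk2 went the other way, from 3.01 to 5.45 CPM in the Day10 mice of the larger and from 7.60 to 9.13 CPM in those of the smaller experiment.

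Other measures moved with treatment at 48 h. The 10 genes together made up 0.301 ± 0.009% of UMIs in Day9DEC and 0.237 ± 0.015% in Day9 (SD, n = 9 and 6), a ratio of 1.27. Treated cells also had more UMIs in all, 15086 against 8420 per cell on average, so the 10 genes gave 45.5 ± 5.16 UMIs per cell against 20.1 ± 3.78, a ratio of 2.27. The share of cells called G1 from S-phase and G2–M genes ranged from 15.4 to 21.6% in Day9DEC and from 43.7 to 54.5% in Day9. Summed markers of naive or memory B cells were lower (99.9 to 204 CPM against 247 to 434 CPM, 4 of 6 genes called lower), and so were light zone genes (6 of 7 called lower) and GC B cell markers (3773 to 4873 CPM against 4700 to 5858 CPM, 7 of 10 called lower and 2 higher). T cell markers summed to 47.3 to 65.6 CPM against 67.6 to 106 CPM (4 of 4 tested genes called lower), most of it Lck (Cd3d, Cd3e, Cd3g, Cd4 and Cd8a were between 0.427 and 1.66 CPM on average), plasma cell markers to 1190 to 2001 CPM against 774 to 1511 CPM (1 of 5 tested genes called higher and 1 lower), and mitochondrial UMIs were lower in both experiments, 2.18 to 2.32% against 2.33 to 2.42% in the larger and 3.85 to 4.19% against 4.35 to 4.41% in the smaller. The share of cells with exactly 1 contig of each B1-8hi chain was higher in treated mice, from 70.5 to 77.7% against 62.3 to 67.4% in the larger and from 53.1 to 58.0% against 34.7 to 38.8% in the smaller experiment. With cells thinned to 2871 UMIs and shallower cells left out (9 to 72 per mouse in Day9DEC and 33 to 178 in Day9), 6 of the 10 genes were still called higher and the median log2 fold change of the 10 was 0.36. Over all genes, 3133 were called with thinned cells, against 4843 without thinning. The part of the marker lists in the result was not tested, and within B1-8hi-paired cells the median of the 10 genes was 0.30, as given above.

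**Figure D2:**
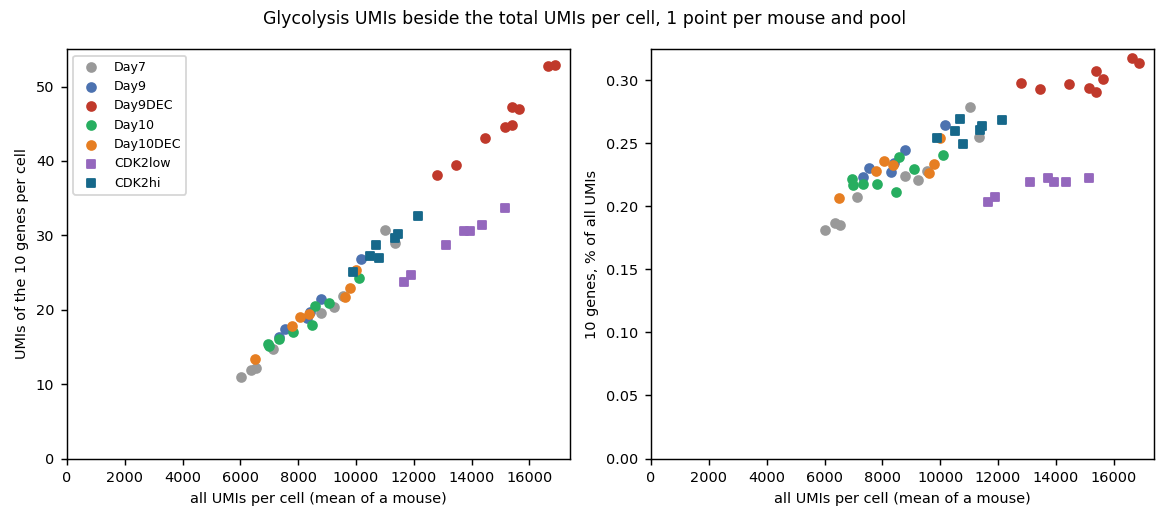
UMIs of the 10 genes per cell (left) and their percentage of all UMIs (right) against the mean of all UMIs per cell, 1 point per mouse (squares, sorted CDK2 fractions). Day9DEC mice lie highest in both measures of the 10 genes, at 0.291 to 0.318% of UMIs, with more UMIs per cell than the other time course mice, and CDK2hi fractions lie above CDK2low fractions in percentage, each at fewer UMIs per cell than the CDK2low fraction of the same mouse.

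At 72 h, no difference between treated and untreated mice passed the test. Of the 10 genes, 0 were called in Day10DEC against Day10, where 8.55% of all tested genes were called, 4.67% higher and 3.88% lower. Log2 fold changes lay between -0.05 and 0.12 and their 95% intervals between -0.23 and 0.40, with a median of 0.06 against -0.004 over all genes. By unadjusted p, Gpi1 alone was below 0.05 (log2 fold change 0.12, 95% interval 0.03 to 0.20, adjusted p = 0.067). DESeq2 also called Gpi1 alone of the 10 genes, where it called 997 of all genes. Pkm, for example, ranged from 346 to 415 CPM in Day10 (median 363.5) and from 309.6 to 410 CPM in Day10DEC (median 381), and Ldha from 356 to 483 CPM (median 449.7) and from 380 to 467 CPM (median 443.5). The ranges of the groups overlapped for all 10 genes. The 10 genes together took 0.224 ± 0.011% of UMIs in Day10 and 0.231 ± 0.014% in Day10DEC, and G1 shares were 37.4 to 52.4% and 33.9 to 53.9%.

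The effect of treatment differed between 48 h and 72 h. Tested as an interaction, 7 of the 10 genes had a higher effect at 48 h, where 31.5% of all tested genes were called, 18.5% higher and 13% lower. The differences in log2 fold change were 0.55 ± 0.13 (SE) for Ldha (adjusted p = 0.00109), 0.52 ± 0.09 for Pkm (adjusted p = 4.67e-05), 0.48 ± 0.12 for Tpi1 (adjusted p = 0.00128) and 0.41 ± 0.10 for Pgk1 (adjusted p = 0.00173). Pfkl, Aldoa and Gapdh lay between 0.26 and 0.35. Slc2a1, Hk2 and Gpi1 were not called, with intervals from -0.66 to 0.19. In the larger experiment alone, 3 genes (Ldha, Pkm and Tpi1) were called, with the median at 0.27, and in B1-8hi-paired cells 4 were called, with the median at 0.21 against 0.34 in all cells. Calls over all genes also fell, from 3217 to 2187 in the larger experiment and to 1931 in B1-8hi-paired cells.

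Among treated mice, 8 of the 10 genes were lower at 72 h than at 48 h, where 49.1% of all tested genes were called, 26.8% lower. Aldoa, Tpi1, Gapdh, Pgk1, Pkm and Ldha were below every Day9DEC mouse in every Day10DEC mouse (3.87% of tested genes had groups apart in this direction). Ldha fell by 0.64 on the log2 scale (SE 0.09, adjusted p = 1.26e-07), Pkm fell by 0.57 (SE 0.06, adjusted p = 1.73e-09) and Gpi1 fell by 0.12 (SE 0.04, adjusted p = 0.0107). For Gpi1 the log2 fold change was -0.02 in the larger experiment alone (adjusted p = 0.717) and -0.19 in the smaller (adjusted p = 0.0411). Of the 10 genes, 7 were called in each experiment alone, by DESeq2 and with library sizes alone, and 6 with thinned cells, where the median moved from -0.43 to -0.26. Over all genes, 4147 were called in the larger experiment, 2661 in the smaller, 5007 by DESeq2, 5346 with library sizes alone and 2740 with thinned cells. Hk2 (-0.19, adjusted p = 0.26) and Slc2a1 (0.07, adjusted p = 0.612) were not called. This comparison shares the Day9DEC mice with that against Day9.

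No change over the same days passed the test in untreated mice. In Day9 against Day7, 0 of the 10 genes were called by edgeR or by DESeq2 (0.127% of all tested genes were called by edgeR, 0.0587% higher and 0.0685% lower), with 2 genes at an unadjusted p below 0.05, Hk2 (0.31, adjusted p = 0.494) and Pkm (0.15, adjusted p = 0.473). In Day10 against Day7, 0 were called by either tool (4.41% of all tested genes by edgeR, 1.79% higher and 2.62% lower), with Gpi1 alone at an unadjusted p below 0.05 (-0.08, adjusted p = 0.223). In Day10DEC against Day7, 0 were called by either tool, and 0 had an unadjusted p below 0.05 in edgeR (4.94% of all tested genes were called, 2.39% higher and 2.55% lower). In Day9DEC against Day7, 8 rose (51.8% of all tested genes were called, 27.1% higher and 24.7% lower), and the median log2 fold change was 0.51 against -0.002 over all genes. In the larger experiment alone 6 were called (median 0.40), without Gpi1 and Pfkl, and in the smaller 9 (median 0.65), Hk2 included. Of all genes, 4026 were called in the larger experiment alone and 3635 in the smaller. Gapdh, Pgk1, Pkm and Tpi1 were above every Day7 mouse in every Day9DEC mouse (2.37% of tested genes). Ordered by its group means, Pkm stood at 517 ± 21.6 CPM in Day9DEC, 389 ± 29.9 CPM in Day9, 377 ± 28.5 CPM in Day10, 369 ± 32.9 CPM in Day10DEC and 351 ± 62.8 CPM in Day7 (SD). The last 4 of these lay within their spread. In Day7 mice, Tpi1 ranged from 152 to 278 CPM and Pgk1 from 148 to 262 CPM, with the mouse of 312 cells lowest for both and for Gapdh.

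**Figure D3:**
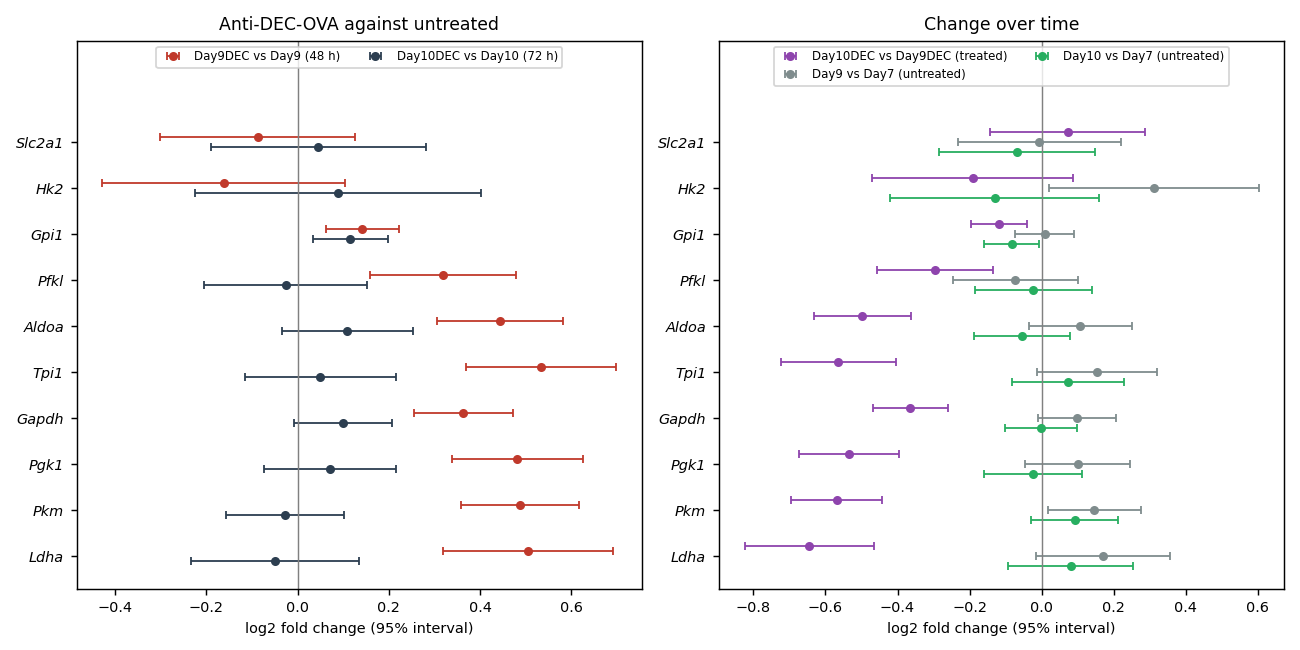
Log2 fold changes of the 10 genes with 95% intervals, treated against untreated at 48 h and at 72 h (left) and over time in treated and untreated mice (right). From Pfkl to Ldha the intervals lie above 0 at 48 h and include 0 at 72 h, and they lie below 0 from Day9DEC to Day10DEC.

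Levels were also compared between cells called to different cell cycle phases. In Day9 mice, Pkm ranged from 181 to 274 CPM in cells called G1, from 451 to 562 CPM in cells called S and from 351 to 428 CPM in cells called G2–M, and the ranges of the 3 phases did not overlap. In every other group the Pkm ranges of some phases overlapped, for example S (418 to 536 CPM) and G2–M (354 to 446 CPM) in Day10. How many of all genes were apart between phases was not counted. Ldha ranged from 225 to 295.5 CPM in G1 and from 559 to 776 CPM in S, and Gpi1 from 201 to 301 CPM in G1 and from 213 to 287 CPM in S, which overlapped. The phases come from other genes of the same cells, and these differences between phases were not tested.

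Treated and untreated mice at 48 h were also compared within each phase. In cells called G1, Gapdh (0.20 ± 0.07 on the log2 scale, adjusted p = 0.0454) and Tpi1 (0.29 ± 0.09, adjusted p = 0.031) rose, 2 of the 10 genes, where 7.18% of tested genes were called, 3.52% higher and 3.66% lower, and the median of the 10 was 0.18. In cells called S, Aldoa, Gapdh, Pgk1, Pkm and Tpi1 rose (0.19 to 0.30) and Hk2 fell by 0.51 (SE 0.18, adjusted p = 0.0406), where 15.7% of tested genes were called, 7.9% higher and 7.84% lower. Hk2 in these cells ranged from 10.1 to 17.2 CPM in Day9 (median 11.4) and from 4.30 to 17.7 CPM in Day9DEC (median 7.04), and the ranges overlapped. In cells called G2–M, the 8 genes called in all cells rose (0.20 to 0.51), where 15.8% of tested genes were called, 8.61% higher and 7.16% lower, and the median was 0.36. Pkm in cells called G2–M ranged from 351 to 428 CPM in Day9 and from 452 to 551 CPM in Day9DEC, with no overlap. The median of 0.40 over all cells stood beside 0.18, 0.20 and 0.36 within G1, S and G2–M, and the difference between phases was not tested. With the phases called on thinned cells, Hk2 was too low to be tested in any phase, 0 of the other 9 genes were called in G1 and their median was 0.16, Ldha was called as well in S, and Gpi1 and Pfkl were no longer called in G2–M. Calls over all genes are not given for these fits, so the lost calls cannot be set against a general loss.

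In the mice with the reporter, genes of the lower pathway were higher in CDK2hi than in CDK2low cells of the same mouse. The 2 fractions were also in different libraries. Of the 10 genes, 6 rose and none fell (edgeR with the mouse as a block), where 75.1% of all tested genes were called, 36.5% higher and 38.6% lower. The median log2 fold change was 0.34 over the 10 genes and -0.02 over all genes. Tpi1, Gapdh, Pgk1, Pkm and Ldha were higher in CPM in every CDK2hi fraction than in any CDK2low fraction (14.3% of tested genes), and Gpi1 was lower in this way (32.9% of tested genes). The scaling matters here: without TMM factors the median of all genes moved from -0.02 to -0.22 and that of the 10 genes from 0.34 to 0.14. Of the 10, 5 were then called higher and 2 lower, where 8233 of all genes were called, against 7596 with TMM factors. Changes below are given relative to the TMM scale unless stated.

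Tpi1 ranged from 184 to 214 CPM in CDK2low (median 202) and from 276 to 312 CPM in CDK2hi (median 293), and it had the largest log2 fold change of the 10 genes, 0.74 ± 0.03 (adjusted p = 1.9e-18). Pkm ranged from 278 to 320 CPM and from 398 to 440 CPM (medians 309 and 423), a rise of 0.66 ± 0.03 (adjusted p = 5.27e-18). The lines of all 7 mice run upward for these genes. Pgk1 rose by 0.56 ± 0.03 (adjusted p = 5.65e-15; 162 to 195 CPM against 226 to 248 CPM), Gapdh by 0.52 ± 0.02 (adjusted p = 8.75e-18; 571 to 625 CPM against 706 to 789 CPM) and Ldha by 0.49 ± 0.03 (adjusted p = 8.4e-15; 337 to 420 CPM against 432 to 493 CPM). In each mouse all of these were higher in CDK2hi.

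Aldoa depended on the scaling. It ranged from 166 to 191 CPM in CDK2low (median 175) and from 163 to 184 CPM in CDK2hi (median 178), and the groups overlapped. Its log2 fold change was 0.18 ± 0.03 with TMM factors (adjusted p = 2.92e-05) and -0.01 with library sizes alone (adjusted p = 0.741). Gpi1 ranged from 262 to 288 CPM in CDK2low (median 276) and from 226 to 245 CPM in CDK2hi (median 235), and its log2 fold change was -0.05 with TMM factors (95% interval -0.10 to 0.01, adjusted p = 0.102) and -0.24 with library sizes alone, where it was called lower. Slc2a1 ranged from 17.6 to 24.1 CPM and from 15.5 to 18 CPM (log2 fold change -0.05, 95% interval -0.18 to 0.08, adjusted p = 0.51), and it too was called lower with library sizes alone (-0.24). Hk2 (-0.05, 95% interval -0.29 to 0.19) and Pfkl (0.05, 95% interval -0.09 to 0.20) were not called, and their groups overlapped.

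**Figure D4:**
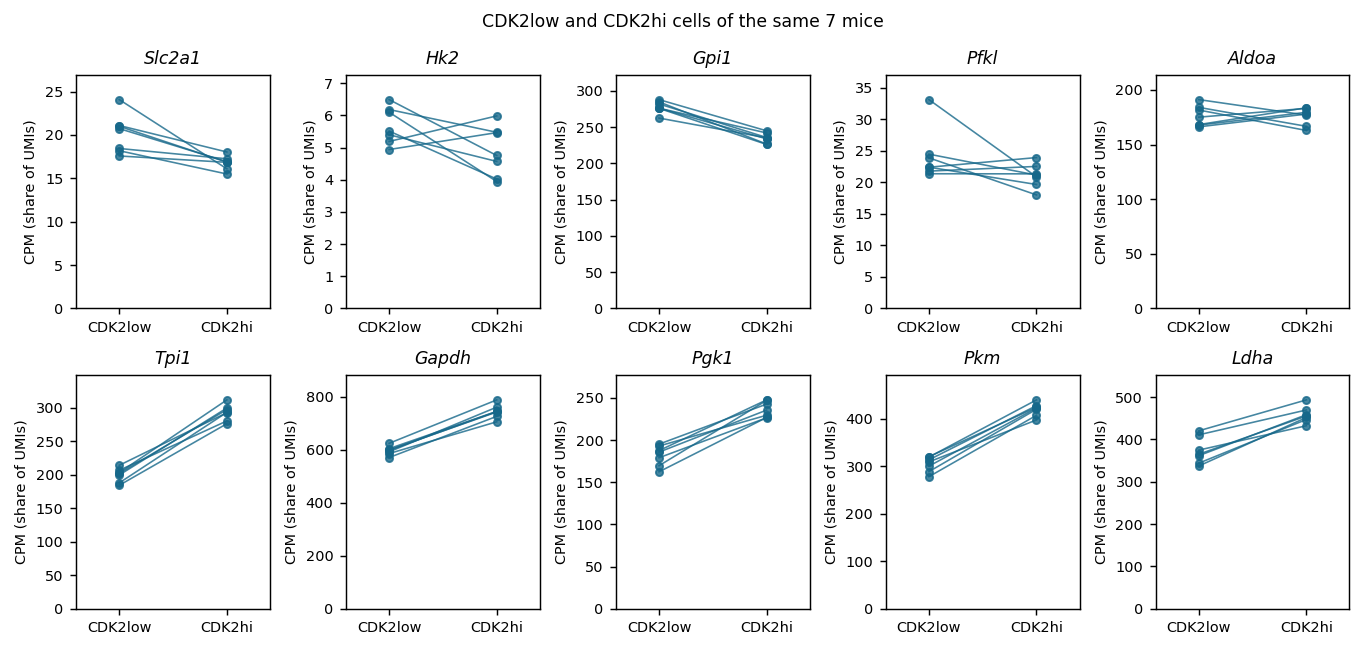
CPM of each gene in CDK2low and CDK2hi cells, 1 line per mouse (7 mice), with axes from 0. All lines rise for Tpi1, Gapdh, Pgk1, Pkm and Ldha, and all fall for Gpi1 and Slc2a1 in CPM, which is not adjusted by TMM factors.

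The sorted fractions also differed in phase and depth. Between 11.1 and 18.4% of CDK2hi cells and between 51.2 and 62.1% of CDK2low cells were called G1. Total UMIs per cell were lower in CDK2hi, 10973 against 13409, and the 10 genes gave 28.6 ± 2.47 UMIs per cell in CDK2hi and 29.0 ± 3.62 in CDK2low, a ratio of 0.986, beside 0.261 ± 0.007% and 0.216 ± 0.008% of UMIs. The fractions differed in the share of UMIs, and the UMIs per cell of the 10 genes differed by less than their SD. Naive or memory B cell markers summed to 100.4 to 181 CPM in CDK2hi and 334 to 536 CPM in CDK2low (5 of 6 genes called lower), and all 7 light zone genes were called lower. GC B cell markers summed to 3935 to 4289 CPM in CDK2hi and 5112 to 5678 CPM in CDK2low (8 of 10 called lower and 2 higher). Mitochondrial UMIs ranged from 3.03 to 3.39% in CDK2hi and from 3.41 to 3.86% in CDK2low, with no overlap. Their part in the result was not tested. Among cells scored as dark zone, 6 of the 10 genes were called with a median of 0.47, where 6730 of all genes were called. Zone scores were scaled within each library, so the fractions were not put on a common scale and zone was not held equal between them. From 49.9 to 63.3% of CDK2hi cells and from 48.1 to 60.4% of CDK2low cells were scored as dark zone.

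Within cells called G1, the same 6 genes rose in CDK2hi (60.2% of tested genes were called, 30.3% higher and 29.8% lower), with a median of 0.47 over the 10 genes. Tpi1 rose by 0.77 ± 0.05 (adjusted p = 8.27e-23), from 131 to 164 CPM in CDK2low to 217 to 267 CPM in CDK2hi. Within cells called S, these 6 rose as well (63% of tested genes were called, 30.6% higher and 32.4% lower), Aldoa by 0.39 ± 0.04 (adjusted p = 4.17e-10). Within cells called G2–M, 4 of 9 tested genes rose (52.3% of tested genes were called, 26% higher and 26.2% lower): Tpi1 by 0.40, Pkm by 0.28, Gapdh by 0.12 and Pfkl by 0.44 ± 0.17 (adjusted p = 0.032). Pfkl was not called with phases from thinned cells, and Gapdh was not called without the mouse as a block. Ldha (0.08, 95% interval -0.03 to 0.19) and Pgk1 (0.04, 95% interval -0.08 to 0.16) were not called there. The CDK2low fractions held few such cells, 29 to 133 per mouse, and the difference between phases was not tested. Phases were called in each library separately, so the fractions were not put on a common scale and phase was not held equal between them.

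**Figure D5:**
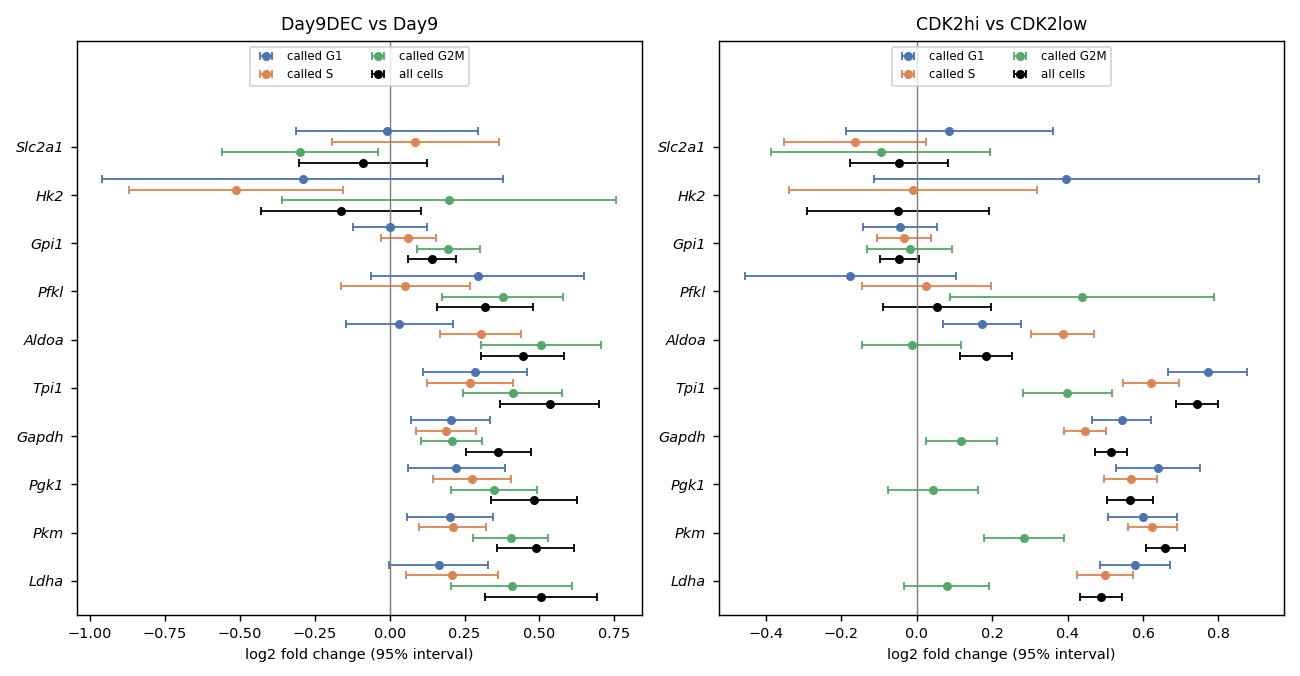
Log2 fold changes with 95% intervals in all cells and within cells called G1, S or G2–M, for Day9DEC against Day9 (left) and CDK2hi against CDK2low (right). From Tpi1 to Ldha, the points at 48 h lie right of 0 in every phase and left of the value for all cells, and the CDK2 points in G2–M lie nearest 0.

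Other genes of the same pathway were read from lists that held no member. Their counts stand beside a background of 47.4% of all tested genes called at 48 h (26.3% higher), 8.55% at 72 h and 75.1% in the CDK2 comparison (36.5% higher), and shares near these say nothing particular of a list. With library sizes alone, 4967 of all genes were called at 48 h and 8233 in the CDK2 comparison. Of 22 further glycolysis and lactate genes, 11 were tested at 48 h, where 4 rose and 1 fell (4 and 2 with library sizes alone). Pgam1, the phosphoglycerate mutase between Pgk1 and Pkm, rose by 0.62 ± 0.08 (adjusted p = 3.75e-08), from 233 ± 30.7 to 340 ± 29.0 CPM. Eno1, the enolase, rose by 0.39 ± 0.08 (adjusted p = 0.000171) and Pfkp, another phosphofructokinase subunit, by 0.28 ± 0.05 (adjusted p = 4.79e-05). The others called were below the expression level set for naming and were named after their values were seen: Pfkm rose (0.65, adjusted p = 0.00674) and Aldoc fell (-1.24, adjusted p = 9.7e-07), the latter from 7.0 ± 1.83 to 2.75 ± 0.65 CPM. At 72 h, 0 of these 11 were called by edgeR, 5 had an unadjusted p below 0.05, DESeq2 called 1, and the median log2 fold change was 0.07. In CDK2hi against CDK2low, 6 rose and 3 fell with TMM factors and 3 rose and 6 fell with library sizes alone, with Pgam1 at 0.67 ± 0.03 (adjusted p = 2.09e-16) and Adpgk, an ADP-dependent glucokinase, at -0.51 ± 0.07 (adjusted p = 3.28e-07).

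Of the regulators of glycolytic flux, 9 were tested, and at 48 h Pfkfb1 rose (0.33, adjusted p = 0.0267; named after its value was seen) and Gsk3b, a kinase that restrains glycogen synthesis, fell (-0.18, adjusted p = 0.000401). With library sizes alone, 0 regulators were called higher and 5 lower. Myc and Hif1a, the factors whose motifs were searched, were among the 7 not called (-0.03 and -0.01 on the log2 scale). At 72 h, Hif1a was the only regulator called (0.20, adjusted p = 0.00442). In CDK2hi against CDK2low, 0 rose and 5 fell (6 with library sizes alone), among them Txnip, which restrains glucose uptake (-0.55, adjusted p = 1.88e-11), Pfkfb3, which makes the activator of phosphofructokinase (-0.52, adjusted p = 2.84e-08), and Hif1a (-0.14, adjusted p = 0.000267). Of the hypoxia response genes outside glycolysis, 11 were tested: 3 rose and 3 fell at 48 h, 2 and 3 with library sizes alone (Egln1 0.40, Higd1a 0.39, Kdm3a -0.33). Higd1a was the only one called at 72 h in edgeR with TMM factors (0.19, adjusted p = 0.0227), where DESeq2 and library sizes alone each called 2 genes, and 2 rose and 7 fell in CDK2hi (Higd1a 0.67, Kdm3a -0.22), 2 and 8 with library sizes alone.

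The branches from glycolysis were read against the same background. Of 7 pentose phosphate genes, which make NADPH and ribose, 4 rose at 48 h and none fell: Tkt by 0.35 (adjusted p = 4.38e-06), Pgd by 0.34 (adjusted p = 3.78e-06), Rpia by 0.23 and G6pdx by 0.21 (named after its value was seen). At 72 h, Pgd (0.24) and Taldo1 (0.14) rose and Pgls fell (-0.22). Of 11 tested genes for entry of pyruvate into mitochondria, 7 rose at 48 h and none fell, with Dld, a subunit of pyruvate dehydrogenase, at 0.39 (adjusted p = 2.59e-07). With library sizes alone, 3 of these and 2 of the pentose phosphate genes rose at 48 h. At 72 h, 0 of the pyruvate entry genes were called by edgeR or DESeq2, with 1 at an unadjusted p below 0.05. In CDK2hi, 5 pentose phosphate genes rose and 1 fell with TMM factors, and 1 rose and 3 fell with library sizes alone (Tkt 0.49 with TMM factors, adjusted p = 1.32e-15). DESeq2 called 2 of the 7 there, counting both directions, where it called 6603 of all genes. Of the pyruvate entry genes, 6 rose and 3 fell with TMM factors, and 2 rose and 3 fell with library sizes alone (Mpc2, a mitochondrial pyruvate carrier subunit, 0.44 with TMM factors, adjusted p = 2.31e-11). Of 3 tested genes of the reverse steps, Pck2 rose at 48 h (0.21, adjusted p = 0.0168) with TMM factors, whereas with library sizes alone 0 were called higher and 1 lower, and in CDK2hi Pck2 and Pcx rose and G6pc3 fell (the latter pair named after their values were seen).

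Across the 39 mice of the time course, the log2 CPM of each gene was set beside the mean log2 CPM of the 10 genes by Pearson's r. The mean of each experiment was subtracted first, so differences in level between the experiments do not enter. This r describes these mice only, since they share libraries, groups and depth. Each member is also part of the mean it was set beside, which raises its r. The members nearest to their own mean were Aldoa (r = 0.960), Pkm (0.948), Ldha (0.948), Gapdh (0.942), Tpi1 (0.942) and Pgk1 (0.929). Pfkl (0.659), Hk2 (0.524), Gpi1 (0.450) and Slc2a1 (-0.181) stood apart from them. The non-members with the highest r were Pebp1 (0.934), Pgam1 (0.933), Ybx1 (0.928), Cct8 (0.918) and Snrpd2 (0.916).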

How the data were processed

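Processed files of 4 pools of 10X Genomics 5′ libraries were used, 2 of the time course and 2 of the CDK2 sort. Per the file headers, the deposited counts were UMIs per gene or hashtag and cell from CellRanger 8.0.1, not normalized. The submitters' processing notes list Cell Ranger 6.0.1, Seurat 5.1.0 and mm39. The authors' list of mice gave hashtags and conditions. Day7, Day9 and Day10 were read as 0, 48 and 72 h after treatment, and C and N as cytoplasmic (CDK2hi) and nuclear (CDK2low) reporter.

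Hashtags were called with HTODemux (Seurat 5.3.0, positive quantile 0.99), and a cell was kept when it had the hashtags of 1 mouse, at least 200 genes and under 10% mitochondrial UMIs. This removed 350 cells of the larger and 3114 of the smaller experiment for mitochondrial UMIs. Doublets within a mouse were not searched for. Counts were summed per mouse, the replicate, and tested over all genes with edgeR 4.0.16 in R 4.3.3, using TMM factors and filterByExpr. The quasi-likelihood model held group and experiment, and p-values were adjusted by the Benjamini-Hochberg method (threshold 0.05). SE and 95% intervals of log2 fold changes come from this fit. Both fractions of a mouse carry the name of that mouse in the authors' list, so the CDK2 test (9 mice listed, 7 with cells) is paired with the mouse as a block. Phases came from CellCycleScoring (43 S and 54 G2–M genes), run on each pool separately, and each phase needed at least 20 cells per mouse.

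The members and lists were chosen with earlier results of these data known. From each other list, up to 3 genes with an average log2 CPM above 4 past the threshold were named if they had the same direction in both experiments (for CDK2, in all 7 mice). Myc and Hif1a were to be named whatever their values, but for Myc only the value at 48 h is given. Alternatives were DESeq2 1.42.0, library size only, no filter, no experiment term, each experiment alone, B1-8hi-paired cells, other hashtag calls, thinned cells and mice left out. One of them, leaving out the Day7 mouse with 312 cells, was chosen after seeing the data. Promoters were taken from RefSeq. Immunoglobulin heavy-chain transcripts are not reported here.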

Additional observations from a re-analysis of the deposited data

Results flagged for a closer look

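Of 70 groups of mice examined (10 genes in 7 groups), 3 held a mouse far from the others of its group. For independent groups of 1 level, chance flags about 1 in 20. That rate need not hold here. The time course groups pool both experiments, which differ in level for some genes, and several of the 10 genes vary together. The 3 flagged were the lowest Day10 mouse for Ldha at 356 CPM, the highest CDK2low fraction for Pfkl at 33.1 CPM, and the lowest Day9DEC mouse for Pgk1 at 275 CPM. The last of these still stood above every Day9 mouse.

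The effect of anti-DEC-OVA differed between 48 h and 72 h by the interaction test (edgeR) in 7 genes, where 31.5% of all tested genes were called, 18.5% higher. The log2 difference was 0.33 for Aldoa, 0.26 for Gapdh, 0.55 for Ldha, 0.35 for Pfkl, 0.41 for Pgk1, 0.52 for Pkm and 0.48 for Tpi1.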

How the results depend on the processing

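Of 1203 values of single genes under alternative settings, 1146 kept their call, 45 lost it, 11 gained it and 1 called value changed sign, Aldoa in CDK2hi against CDK2low with library sizes alone (-0.0125, adjusted p = 0.741). Of the 1146, 67 changed sign while not called in either setting. In Day10DEC against Day10, 1 gene instead of 0 was called under DESeq2, library sizes alone, the larger experiment alone, the highest hashtag and thinned cells (Gpi1, or Gapdh with thinned cells). Over all genes, these settings called 997, 914, 819, 958 and 465, in the same order, instead of 874. The interaction gave 3 genes in the larger experiment alone and 4 in B1-8hi-paired cells, instead of 7 (over all genes 2187 and 1931, instead of 3217). Within G1 at 48 h, 0 instead of 2 were called with phases from thinned cells, for which calls over all genes are not given. Leaving out the Day7 mouse with 312 cells left 8 genes called in Day9DEC against Day9 and against Day7. The pairing by mouse changed no count of members in the CDK2 comparison over all cells, within G1 or within S: over all cells 6 genes were called with and without the block (median 0.336 and 0.339), and 6 without any 1 mouse (medians 0.317 to 0.356). Within G2–M, 4 were called with the block and 3 without it. Over all genes, Day9DEC against Day9 gave 4843 calls, 2680 without the experiment term, 2149 in the smaller experiment and 3133 with thinned cells, and Day10DEC against Day10 gave 874, 217, 22 and 465. Hk2, with few UMIs, sets the limit of depth: its 95% interval at 48 h spans -0.43 to 0.10. Counts of all 10 genes are 5′ UMIs of pooled cells, and counting error is the only error that deeper sequencing would lower.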
